A study of Hydra vulgaris with 30 samples.

Results

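A rule for a late rise at 24 hours postamputation (hpa), with only small earlier rises allowed, was met by 4 of the 51290 transcripts listed. The counts came from regenerating tips of *Hydra vulgaris*, and 26801 of the 51290 had 0 counts in every library. The 4 transcripts are MSTRG.18968.2, MSTRG.17510.1, Sc4wPfr_431.g33211.t1 and Sc4wPfr_1618.g5157.t1. They were chosen by their levels in CPM, which are counts scaled to the same total of assigned reads in every library. The highest DMSO mean had to reach 30 CPM. The log2 ratio of the DMSO means plus 5 CPM had to be at least 1 at 24 against 0 hpa and under 0.5 at 3, 8 and 12 hpa, with every DMSO library of 24 hpa above every DMSO library of 0 hpa. The same ratio of UNC0379 to DMSO had to lie between -1 and 1 at 0 hpa, at 24 hpa and as a mean over 3, 8 and 12 hpa. The DMSO time course and the UNC0379 means therefore chose the transcripts, and their values are given below as a description, with no test.

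Polyps of a clonal culture of the strain Ind-Pune were treated with UNC0379, or with 0.2% DMSO as the vehicle, and decapitated. Tips were taken at decapitation (0 hpa), then 3 and 8 hpa, 12 hpa and finally 24 hpa, which gives 10 groups of treatment and time with 3 libraries each. UNC0379 is a small-molecule inhibitor of SETD8 (KMT5A), and its dose is written as 150 µM in one label and with the same figure in mM in another. All groups share this culture, and neither the labels nor the methods state whether libraries of a group are separate cultures, so that p-values measure the spread between libraries, which may be technical.

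SETD8 is the enzyme that places the monomethyl mark on lysine 20 of histone H4 (H4K20me1), a mark found over transcribed genes and in compacted chromatin. After decapitation a *Hydra* polyp first closes the wound, and Wnt signalling is then set up again at the tip as part of the head organizer, the group of cells that directs the formation of a new head. Tentacles emerge later than the last time sampled. At 24 hpa the tip is therefore past wound closure but carries no visible tentacle buds. The identifiers of these 4 transcripts are not paired with gene names in the files or the tables used here, where 0 of 94298 transcript and gene model identifiers were found, so no role or sequence is given for them. For the same reason the labelled tissue could not be checked against marker genes. The RNA came from whole tips, so more cells that hold a transcript and more RNA per cell cannot be told apart.

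QuantSeq libraries hold 1 tag from the 3′ end of each captured mRNA, and a count is a number of such tags. Reads assigned to transcripts numbered 146798 to 811079 per library (median 515933), and 1 count was worth 1.23 to 6.81 CPM. Counts of the 4 transcripts ran from 3 to 92 in a library, and each of the 4 had counts in all 30 libraries. Ambiguous reads numbered 1.03 to 1.22 times the assigned ones, which leaves the counts of overlapping transcripts uncertain. DMSO 24 hpa replicate 3 had 98.2% of its reads not aligned, against 16.5% to 69.0% in the other libraries. This library held 95486349 reads, against at most 4920221 in any other, and 625103 of its reads were assigned to transcripts. UNC0379 24 hpa replicate 3 was the shallowest library. Its mean Pearson correlation with the other libraries of its group was 0.749, across 2725 transcripts with a mean of at least 30 CPM in log2(CPM + 5). The library labelled UNC0379 0 hpa replicate 3 had a mean correlation of 0.885 with its own group and of 0.940 with DMSO 24 hpa, a group of another treatment and time. Its label was kept as given, and whether the label is right was not tested. In all, 13 of the 30 libraries had a higher mean correlation with another group than with their own. They included UNC0379 0 hpa replicates 1 and 2 (0.933 and 0.920 with their own group, 0.951 and 0.949 with DMSO 3 hpa). UNC0379 24 hpa replicate 1 (0.863 with its own group, 0.901 with DMSO 24 hpa) was another. So was UNC0379 24 hpa replicate 2 (0.830 with its own group, 0.924 with UNC0379 12 hpa). As single libraries, replicates 1 and 2 of UNC0379 0 hpa were each most like the other (0.969). Replicates 1 and 2 of UNC0379 24 hpa were too (0.944). The own-group means of these libraries include replicate 3. Of the DMSO libraries of 0 and 24 hpa, which define the late rise, the 13 included DMSO 0 hpa replicate 2 and DMSO 24 hpa replicate 1. The first had 0.939 with its own group and 0.944 with DMSO 3 hpa, the second 0.933 and 0.944 with DMSO 8 hpa. These correlations are across transcripts, which are not independent replicates.

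A late rise was rare by this rule. Of the 51290 transcripts, 3325 reached 30 CPM in a DMSO mean, and 106 of these (3.19%) had a 24 hpa mean at least 2-fold that at 0 hpa on the log2(CPM + 5) scale. Of the 106, 98 had all DMSO 24 hpa libraries above all DMSO 0 hpa libraries, and 35 of these met the limits on the treatment differences. Of the 35, 31 had already risen by 0.5 or more at an earlier time, 28 of them at 8 hpa, 29 at 12 hpa and as few as 15 at 3 hpa. The 4 late-rising transcripts remained. The log2 ratio at 24 against 0 hpa in DMSO was 1.01 to 1.19 in the 4 (median 1.08) and 1.02 to 4.30 in the 31 (median 1.27), so all 4 lay close to the limit of 1. The median over all 3325 was -0.13.

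**Figure D1:**
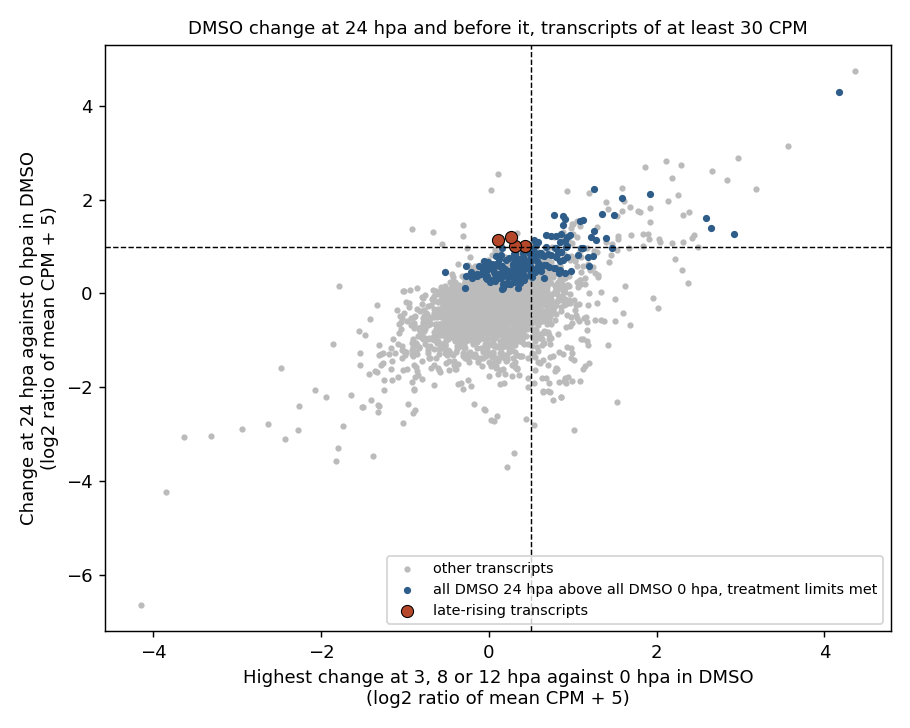
DMSO change at 24 against 0 hpa (y axis) and the highest DMSO change at 3, 8 or 12 against 0 hpa (x axis), both as log2 ratios of mean CPM + 5, for the 3325 transcripts of at least 30 CPM. Dashed lines mark the limits of 1 and 0.5. The 4 late-rising transcripts lie just above the horizontal limit, between 1.01 and 1.19, and blue points are the other transcripts that met the limits on library overlap and treatment.

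Transcripts just outside the limits had similar values. Sc4wPfr_839.g4004.t1, the nearest below the limit on the late rise, had a log2 ratio of 0.99, with DMSO means of 76.8 CPM at 24 hpa and 36.1 CPM at 0 hpa. Sc4wPfr_106.g23588.t1, the nearest above the limit on an early rise, had a log2 ratio of 1.13 at 24 hpa and of 0.54 at 8 hpa. In all, 147 transcripts missed only the limit on the size of the late rise, 11 missed only the level, and 6 missed only the limits on the treatment differences. The separation of the DMSO libraries alone left out 0.

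MSTRG.18968.2 was the most counted of the 4, with 1120 counts over the 30 libraries. At 24 hpa it had 100.8, 67.4 and 81.7 CPM under UNC0379 and 104.7, 94.3 and 147.2 CPM in DMSO. At 0 hpa it had 60.0, 42.5 and 123.4 CPM under UNC0379 and 69.7, 40.2 and 54.7 CPM in DMSO. The DMSO libraries of 24 hpa lay above those of 0 hpa, as the rule requires, while the UNC0379 libraries of the 2 times overlapped because the library labelled UNC0379 0 hpa replicate 3 held the highest value of the 6. From 3 to 12 hpa the 9 UNC0379 libraries ran from 28.2 to 97.8 CPM (median 56.5) and the 9 DMSO libraries from 42.4 to 107.5 CPM (median 62.9). 1 of those 9 DMSO libraries, the highest of the 3 at 12 hpa, lay above the lowest DMSO library of 24 hpa. This transcript was the only one of the 4 whose DMSO 24 hpa libraries overlapped earlier ones. MSTRG.17510.1 (34.9 against 33.1 CPM at 12 hpa) and Sc4wPfr_431.g33211.t1 (24.7 against 24.5 CPM) escaped overlap by less than 1 count is worth. The DMSO mean of MSTRG.18968.2 was 115 ± 28.0 CPM at 24 hpa and 54.8 ± 14.7 CPM at 0 hpa (SD, n = 3 each). The log2 ratio to 0 hpa, in DMSO, was 0.05 for 3 hpa, 0.06 for 8 hpa, 0.43 for 12 hpa and 1.01 for 24 hpa.

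MSTRG.17510.1 had 435 counts in all. At 24 hpa it had 18.3, 18.4 and 149.9 CPM under UNC0379 and 34.9, 47.1 and 75.2 CPM in DMSO. At 0 hpa it had 24.0, 22.9 and 27.8 CPM under UNC0379 and 10.5, 33.9 and 18.2 CPM in DMSO. Under UNC0379 a single library carried the high mean at 24 hpa, and the other pair lay below all 3 libraries of 0 hpa. That library was UNC0379 24 hpa replicate 3, where 22 counts gave 149.9 CPM, with an exact (Clopper-Pearson) 95% interval of 93.9 to 226.9 CPM that covers counting error only. From 3 to 12 hpa the 9 UNC0379 libraries ran from 12.1 to 41.0 CPM (median 21.7) and the 9 DMSO libraries from 16.1 to 33.1 CPM (median 21.0). The lowest DMSO library of 24 hpa lay above the highest of 0 hpa by less than 1 count is worth in either library. In DMSO the log2 ratio to 0 hpa was 0.11, 0.11 and 0.10 at 3, 8 and 12 hpa and 1.15 at 24 hpa, the flattest early course of the 4.

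Sc4wPfr_431.g33211.t1 had 279 counts in all, the fewest of the 4, and the largest late change, with a DMSO log2 ratio of 1.19. At 24 hpa it had 13.7, 24.5 and 40.9 CPM under UNC0379 and 49.9, 24.7 and 56.0 CPM in DMSO. At 0 hpa it had 14.0, 16.3 and 24.7 CPM under UNC0379 and 9.20, 21.2 and 18.2 CPM in DMSO. The lowest UNC0379 library of 24 hpa lay below the lowest of 0 hpa, but by less than 1 count is worth in either library. In DMSO, 1 library of 24 hpa, at 24.7 CPM, stood well below the other pair. It was the only one of the 4 whose DMSO mean was lower at 3 than at 0 hpa. The DMSO means were 16.2 ± 6.23, 7.70 ± 2.28, 14.0 ± 7.12, 20.4 ± 4.18 and 43.5 ± 16.6 CPM (SD, n = 3 each) from the earliest to the latest time. Those under UNC0379 were 18.3 ± 5.61, 9.69 ± 4.34, 9.52 ± 3.53, 13.5 ± 7.25 and 26.4 ± 13.7 CPM (SD, n = 3 each) over the same times.

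Sc4wPfr_1618.g5157.t1 had 345 counts in all and the smallest late change in DMSO, a log2 ratio of 1.01. At 24 hpa it had 41.2, 33.7 and 109.0 CPM under UNC0379 and 34.9, 35.9 and 38.4 CPM in DMSO. At 0 hpa it had 12.0, 4.90 and 32.4 CPM under UNC0379 and 14.5, 16.9 and 15.4 CPM in DMSO. Both treatments had all 24 hpa libraries above all 0 hpa libraries. Under UNC0379 the lowest of 24 hpa, at 33.7 CPM, lay above the highest of 0 hpa, at 32.4 CPM in the library labelled replicate 3, by less than 1 count is worth in either library. The 3 DMSO libraries of either time lay close together, on 8 to 11 counts at 0 hpa and 14 to 24 counts at 24 hpa. Counting error alone was wider than this spread. The exact (Clopper-Pearson) 95% interval was 7.31 to 33.4 CPM in DMSO 0 hpa replicate 2 and 19.1 to 58.6 CPM in DMSO 24 hpa replicate 1. From 3 to 12 hpa the 9 UNC0379 libraries ran from 10.1 to 27.2 CPM (median 15.8) and the 9 DMSO libraries from 10.8 to 30.1 CPM (median 18.6), all below every 24 hpa library of either treatment. The highest UNC0379 value, 109.0 CPM in replicate 3, came from 16 counts in the shallowest library, with an exact (Clopper-Pearson) 95% interval of 62.3 to 177.0 CPM.

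**Figure D2:**
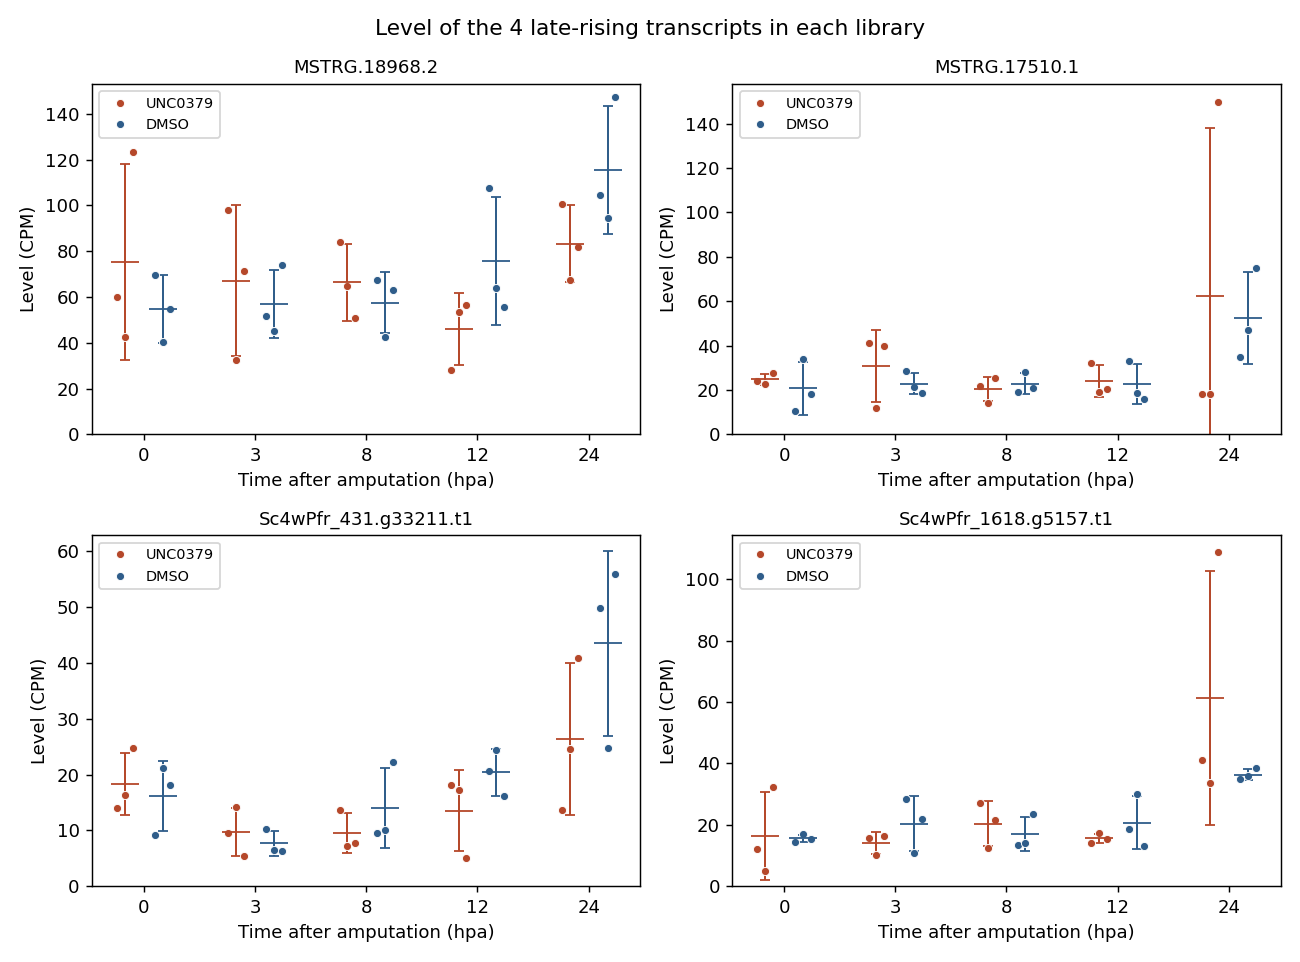
Level in CPM (y axis) of the 4 late-rising transcripts in each of the 30 libraries, by time in hpa (x axis), with UNC0379 in red to the left of DMSO in blue. Points are libraries, horizontal bars are means and error bars are SD (n = 3 each), cut at 0 where the SD reaches below it. The 24 hpa DMSO points lie above the 0 hpa DMSO points in each panel, and the UNC0379 mean of MSTRG.17510.1 at 24 hpa rests on one library at 149.9 CPM.

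The summed level of the 4 transcripts was 144 to 381 CPM (median 174) at 24 hpa under UNC0379 and 202 to 317 CPM (median 224) in DMSO. At 0 hpa it was 86.6 to 208 CPM (median 110) under UNC0379 and 104 to 112 CPM (median 107) in DMSO. The highest sum of each 24 hpa group was in replicate 3, and so was the highest of the libraries labelled UNC0379 0 hpa. Of the 4 transcripts, 4 were highest in DMSO 24 hpa replicate 3 among the DMSO 24 hpa libraries, and 3 were highest in UNC0379 24 hpa replicate 3 among the UNC0379 24 hpa libraries. Whether the state of these libraries has a part in these values was not tested.

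The UNC0379 libraries entered the rule too. On the log2(CPM + 5) scale, the UNC0379 change at 24 against 0 hpa is the DMSO change plus the treatment ratio at 24 hpa minus that at 0 hpa, and the rule limited all 3. The changes within UNC0379 are therefore a description, in which a value of 0 is not what the choice of transcripts would give by default. The log2 fold changes from edgeR at 24 against 0 hpa were 1.64 for Sc4wPfr_1618.g5157.t1 (standard error 0.47), 0.83 for MSTRG.17510.1 (standard error 0.58), 0.35 for Sc4wPfr_431.g33211.t1 (standard error 0.49) and 0.15 for MSTRG.18968.2 (standard error 0.36). All 4 had passed the filter on low counts, and 1 of the 4 had an adjusted p under 0.05 with a higher level, where 5.23% of the 5046 transcripts tested did. Nothing is read from this count, since the rule used these means.

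Single libraries moved these values. For Sc4wPfr_1618.g5157.t1, with 61.3 ± 41.5 CPM at 24 hpa and 16.4 ± 14.3 CPM at 0 hpa under UNC0379 (SD, n = 3 each), the value was 1.15 without UNC0379 24 hpa replicate 3 and, of the UNC0379 0 hpa group, 1.43 without replicate 1 and 1.19 without replicate 2. None of these 3 fits kept the adjusted p under 0.05. It was 2.65 without the library labelled UNC0379 0 hpa replicate 3, and 2.18 without this library and replicate 3 of both 24 hpa groups. The value of MSTRG.17510.1 turned to -0.41 without UNC0379 24 hpa replicate 3, the library with 149.9 CPM. That of MSTRG.18968.2 was 0.73 without the library labelled UNC0379 0 hpa replicate 3, which had 123.4 CPM. It turned below 0 without either other UNC0379 0 hpa library or without UNC0379 24 hpa replicate 1, at the lowest -0.14.

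Against 12 hpa, the log2 fold changes under UNC0379 were 1.84 for Sc4wPfr_1618.g5157.t1 (standard error 0.48), 1.00 for MSTRG.17510.1 (standard error 0.58), 0.99 for Sc4wPfr_431.g33211.t1 (standard error 0.52) and 0.94 for MSTRG.18968.2 (standard error 0.38). Sc4wPfr_1618.g5157.t1 had 61.3 ± 41.5 CPM at 24 hpa and 15.6 ± 1.56 CPM at 12 hpa (SD, n = 3 each). For this transcript and for MSTRG.18968.2 all 3 UNC0379 libraries of 24 hpa lay above all 3 of 12 hpa, while for the other pair the groups overlapped. In edgeR, 1 of the 4 had an adjusted p under 0.05 with a higher level, where 6.76% of all transcripts tested did, and again nothing is read from this count. It was 0 without UNC0379 24 hpa replicate 3, where Sc4wPfr_1618.g5157.t1 was at 1.37, 2 when the library labelled UNC0379 0 hpa replicate 3 was left out and 3 when it was UNC0379 24 hpa replicate 2.

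**Figure D3:**
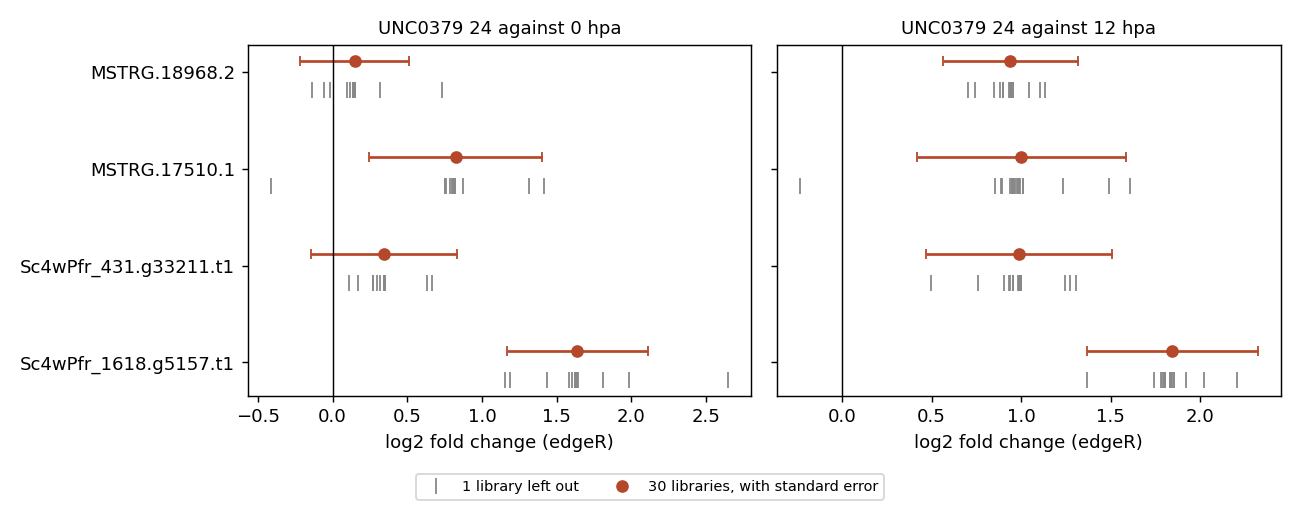
log2 fold change from edgeR (x axis) of the 4 late-rising transcripts under UNC0379, at 24 against 0 hpa on the left and 24 against 12 hpa on the right. Circles are values from 30 libraries with standard errors, and grey ticks are the values with 1 library left out. Sc4wPfr_1618.g5157.t1 lies farthest to the right in both panels, at 1.64 and 1.84, and MSTRG.17510.1 has one tick at -0.41 on the left.

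At 3, 8 and 12 hpa the rule held the DMSO changes under 0.5 and the mean UNC0379 to DMSO ratio within its limits. The choice of transcripts therefore limited a mean rise under UNC0379 over these times but did not exclude one. The ratios at single times were not limited. Sc4wPfr_431.g33211.t1 had log2 fold changes under UNC0379 against 0 hpa of -1.10 at 3 hpa (standard error 0.54) and -1.17 at 8 hpa (standard error 0.54). MSTRG.18968.2 had -0.79 at 12 hpa (standard error 0.36). The other values ran from -0.64 to 0.18, with standard errors of 0.36 to 0.59. By edgeR 0 of the 4 had an adjusted p under 0.05 in either direction, where 8.16% of the transcripts tested did at one of the 3 times or more. Of the 12 comparisons, 3 had an unadjusted p under 0.05 in edgeR, each with a lower level than at 0 hpa. DESeq2 and limma-voom also gave 0 of the 4 at an adjusted p under 0.05. Unadjusted, DESeq2 gave 0 and limma-voom 1 of the 12 comparisons under 0.05. Nothing is read from these counts.

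The treatment differences were part of the rule and are described only. At 24 hpa the log2 ratio of UNC0379 to DMSO means plus 5 CPM was -0.63 for Sc4wPfr_431.g33211.t1, -0.45 for MSTRG.18968.2, 0.23 for MSTRG.17510.1 and 0.68 for Sc4wPfr_1618.g5157.t1. For 0 of the 4 did the UNC0379 libraries of 24 hpa lie all above or all below the DMSO libraries of 24 hpa. At 0 hpa the ratio ran from 0.06 to 0.42. At single times between, where only the mean was limited, it ran from -0.41 to 0.36 at 3 hpa, from -0.39 to 0.21 at 8 hpa and from -0.66 to 0.07 at 12 hpa. MSTRG.18968.2 had the lowest ratio of the 4 at 12 hpa, with 46.1 ± 15.6 CPM under UNC0379 and 75.8 ± 27.8 CPM in DMSO (SD, n = 3 each).

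Beyond the measure that chose them, the identifiers place the 4 in 4 gene models. The MSTRG names, the prefix that the assembler StringTie gives to its transcripts, belong to 2 of the 4 and to 29.7% of all transcripts, or 23.8% of those at 30 CPM. The Sc4wPfr pair lie on different scaffolds by their names and are the only transcripts of their models. MSTRG.18968 and MSTRG.17510 each hold 1 further transcript, and with the usual settings of HTSeq, reads that fit both transcripts of a model are recorded as ambiguous. MSTRG.18968.1 had 3 counts in all, too few to test. MSTRG.17510.2 had 346 counts, and its values were not used by the rule. At 24 hpa it had 27.5, 23.0 and 68.1 CPM under UNC0379 and 24.9, 29.2 and 12.8 CPM in DMSO. At 0 hpa it had 26.0, 11.4 and 21.6 CPM under UNC0379 and 11.8, 23.3 and 11.2 CPM in DMSO. The DMSO libraries of the 2 times overlapped, and replicate 3, the highest of the 3 for MSTRG.17510.1 at 24 hpa, was the lowest for MSTRG.17510.2. The log2 fold change of MSTRG.17510.2 at 24 against 0 hpa was 0.67 in DMSO (standard error 0.48, adjusted p = 0.427 from edgeR) and 0.78 under UNC0379 (standard error 0.46, adjusted p = 0.269). Thus 0 of 1 tested was called higher in DMSO by edgeR, where 3.71% of transcripts were, with 0 also at an unadjusted p under 0.05, by DESeq2 and by limma-voom. Summed over each model, the DMSO log2 ratio at 24 against 0 hpa was 0.99 for MSTRG.18968 and 0.95 for MSTRG.17510, both under the limit of 1.

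Of the other transcripts named after the same scaffolds, 4 had enough counts to be tested, with DMSO changes of either sign and no adjusted p under the threshold. Of all 5046 transcripts tested, 3.71% were called higher in DMSO at 24 against 0 hpa, and the share called lower is not given here. With so few transcripts, nothing is read from the lack of a call. The scaffold in the name of Sc4wPfr_1618.g5157.t1 carries 20 others, 7 of them with counts, and that of Sc4wPfr_431.g33211.t1 carries 26 others, 10 with counts. Sc4wPfr_1618.g5156.t1, which precedes Sc4wPfr_1618.g5157.t1 in number, had a DMSO log2 fold change at 24 against 0 hpa of 0.32 (adjusted p = 0.504 from edgeR), and Sc4wPfr_1618.g5147.t1 had 0.64 (adjusted p = 0.257). Sc4wPfr_431.g33225.t1 had -0.36 (adjusted p = 0.566), and Sc4wPfr_431.g33220.t1 had -1.24 (adjusted p = 0.156). Under UNC0379, Sc4wPfr_431.g33220.t1 fell by 2.04 on the log2 scale at 24 against 0 hpa (standard error 0.64, adjusted p = 0.0351 from edgeR). In the same edgeR comparison, Sc4wPfr_1618.g5147.t1 had 1.09 (adjusted p = 0.0729). Sc4wPfr_1618.g5156.t1 had -0.14 (adjusted p = 0.794), and Sc4wPfr_431.g33225.t1 had -0.42 (adjusted p = 0.483). The share of all transcripts called lower is not given here, so nothing is read from the single call. The order of these transcripts on the scaffolds is known here only from their names.

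Which transcripts met the rule depended on single libraries. Without DMSO 24 hpa replicate 3, 2 transcripts met it and 0 of the 4 were among them, because their log2 ratios at 24 against 0 hpa fell to 0.80 (MSTRG.18968.2), 0.83 (MSTRG.17510.1), 1.00 (Sc4wPfr_431.g33211.t1, just below the limit) and 0.97 (Sc4wPfr_1618.g5157.t1). Without DMSO 0 hpa replicate 1, 3 met it and again 0 of the 4. For 3 of them the late ratio then lay between 0.89 and 0.97, and MSTRG.18968.2 reached 0.62 at 12 hpa. Without DMSO 0 hpa replicate 2, 5 met it and 2 of the 4 were kept. Without UNC0379 24 hpa replicate 3, 3 met it and 2 of the 4 were kept. Over the 30 libraries left out in turn, 2 to 14 transcripts met the rule and 23 of the 30 kept all 4. The extremes were 14 without DMSO 24 hpa replicate 1, 10 without DMSO 0 hpa replicate 3, and 2 when replicate 3 of DMSO at 12 or at 24 hpa was left out.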

How the data were processed

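3′ mRNA of regenerating tips was measured by QuantSeq in 30 libraries, 3 for each of 2 treatments and 5 times. The authors deposited raw counts of reads per transcript, in a separate file for each library. Trimmomatic, HISAT2 and HTSeq are named in the submitters' processing notes with no version, and the build, annotation and strandedness of counting were not given in the sources used here. Library sizes and tests leave out the 5 summary lines of HTSeq. The sample labels gave the groups and the replicate numbers.

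CPM values are counts scaled to the sum of assigned counts of a library. The 4 transcripts, the comparisons and the alternatives were chosen with earlier results of these data known. A model was fitted in R 4.3.3 with edgeR 4.0.16 (filterByExpr on the 10 groups, 5046 transcripts, TMM, robust quasi-likelihood test, one coefficient per group, all 30 libraries). P-values were adjusted by Benjamini-Hochberg across the 5046, with a threshold of 0.05, and standard errors are the fold change over the root of F. The smallest p that an exact permutation test of 3 against 3 libraries allows is 0.1. The rule used the DMSO and the UNC0379 means, so changes within either treatment are given for the 4 as a description. Transcripts were named by their place in the list: smallest adjusted p, highest level, largest and smallest late change and treatment difference, lowest UNC0379 change, shared gene model, and the nearest outside the limits, which took in all 4. Scaffold neighbours with enough counts to be tested were added after their values were seen. Alternatives were limma-voom (limma 3.58.1), DESeq2 1.42.0, normalization by the upper quartile, a filter of 10 counts in 15 libraries or none, a block for the replicate number, fewer libraries in the fit, counts summed per gene model, each library left out, 3 libraries left out together and thinning to the smallest total. Figures were drawn with matplotlib 3.10.9.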

Additional observations from a re-analysis of the deposited data

How the results depend on the processing

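The number of transcripts that met the rule was 7 with a pseudocount of 1 CPM, 8 with TMM library sizes, 11 with a level of 10 CPM and 20 with an early limit of 1, each time with the 4 among them. It was 2 with counts summed per gene model, the models of the Sc4wPfr pair, and 2, with none of the 4, without replicate 3 of UNC0379 at 0 and 24 hpa and of DMSO at 24 hpa (3 libraries together). With 1 library left out it ran from 2 to 14. Of the counts from which nothing is read, the number of the 4 with an adjusted p under 0.05 and a higher level under UNC0379 at 24 against 0 hpa was 0 in place of 1 with no filter on low counts, with only the 15 UNC0379 libraries, with only the 2 groups compared, and with libraries thinned to the smallest total, where 1 of the 4 could still be tested. With 1 library left out it was 0 to 1. At 24 against 12 hpa it was 0 with only the 2 groups compared and with thinned libraries, 2 without the 3 libraries together, and 0 to 3 with 1 library left out. The other 2 counts were 0 under every alternative that gave a value. MSTRG.18968.2 had -0.020 at 24 against 0 hpa with no filter, and -0.14 to 0.73 with 1 library left out. Without the 3 libraries together, MSTRG.17510.1 had -0.33 at 24 against 0 hpa and -0.25 at 24 against 12 hpa. With 1 library left out these ran from -0.41 to 1.41 and from -0.23 to 1.61. The cause of these changes was not tested, apart from thinning, where fewer transcripts had enough counts.

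The main fit did not pair libraries by replicate number. At 24 against 0 hpa under UNC0379, the correlations of same-numbered deviations were -0.05, 0.42 and 0.29 for replicates 1, 2 and 3. At 24 against 12 hpa they were -0.02, 0.05 and 0.02. Differently numbered libraries were not compared, so whether the numbers pair the libraries was not tested. In the fit with a replicate block, the count was 1 at 24 against 0 hpa and 2 at 24 against 12 hpa.

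With 3 to 92 counts of a transcript in a library, 1 count is a large share of many values, and counting error alone is wide at 24 hpa under UNC0379.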
